A study of Homo sapiens with 24 samples.

Results

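Programmed cell death through mitochondria runs from cytochrome c to cut DNA, and 8 genes of that route are described here in HT29 cells, a human colon adenocarcinoma cell line. They are APAF1, CASP9 and CYCS of the apoptosome, the effector caspase CASP6, and DFFA, DFFB, ENDOG and AIFM1 of DNA fragmentation. All probes that are not controls and carry one of these symbols were taken, whatever their level, which gave 11 probes for 8 genes, of 50599 probes with 36337 gene names on the array. All 11 were well above background on all 24 arrays.

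Labelled cRNA made from total RNA was hybridised to 24 single-colour arrays, 4 for each of 6 groups, and each label gives a replicate number. NT cells were untreated. For 6 h the other cells received C3/C2 (propionate at 30 mM together with 15 mM acetate), SN (a culture supernatant of propionibacteria diluted to 1/2), TRAIL (100 ng/ml, with 2 µg/ml anti-Flag M2 antibody, which crosslinks the tagged ligand), TRAIL+C3/C2 or TRAIL+SN. The C3/C2 mixture stands for the acids of SN, while SN also holds whatever else the culture left in the medium. Every group was HT29, so nothing here speaks for other colon cells. Treatments were compared with NT to ask what each does alone, the 2 co-treatments with each other to ask whether SN differs from its acids, and the co-treatments with the single treatments to ask whether their changes add up.

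Cytochrome c, the product of CYCS, carries electrons in the space between the membranes of mitochondria. Once released into the cytosol it binds APAF1, and the assembled apoptosome activates caspase-9, which in turn activates the effector caspases. Effector caspases cleave DFFA, the inhibitor and chaperone that holds the nuclease DFFB inactive, and freed DFFB cuts DNA between nucleosomes. CASP6 encodes an effector caspase known for cutting lamin A, while ENDOG, a mitochondrial nuclease, and AIFM1, a mitochondrial flavoprotein, can act on DNA without caspases. These steps are mostly set by protein release and cleavage, which RNA arrays do not measure.

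Some probes are given here because the results below turn on where they lie. The files give hg19 coordinates. The DFFB gene has 2 probes, at transcript position 492 (chr1:3775337-3775396, plus strand) and at position 2560 (chr1:3801526-3801585), 26189 bases apart in the genome. The CYCS gene has 3, at positions 613 (chr7:25163135-25163189, minus strand), 685 and 5428. Positions 613 and 5428 lie 4815 bases apart in the transcript, and these probes are called near and far. The coordinates of the probe at position 685 (chr7:25158264-25158296) cover 33 of its 60 bases and lie 4893 bases from the probe at position 613 although the transcript positions differ by 72, so its place is uncertain. RefSeq lists 45 CYCS pseudogenes, and how much of a CYCS signal comes from their transcripts was not tested. The single DFFA probe (chr1:10521283-10521342, minus strand) is printed as 10 spots on each array. The single CASP6 probe lies at chr4:110610645-110610704 on the minus strand, and the coordinates of the 60-base ENDOG probe span 1539 bases (chr9:131583081-131584619), so it crosses an intron. Sequences follow 5′ to 3′ in lower case, whole for 3 probes and as the first 30 bases for 3 others.
CASP6, the effector caspase that fell: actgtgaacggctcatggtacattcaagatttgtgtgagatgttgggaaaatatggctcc
ENDOG, across an intron: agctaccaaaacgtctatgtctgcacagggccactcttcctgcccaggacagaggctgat
DFFB at position 492, the near probe: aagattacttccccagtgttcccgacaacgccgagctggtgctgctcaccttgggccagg
DFFB at position 2560, the far probe: aggccaaaaatggtgagcgatcatttattt
DFFA, the inhibitor that rose: gatatagctgcaccaacaatatcccgcctc
CYCS at position 613, the near probe: ggcaatcctgatttaaaactaagactggct

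Several facts of the whole set bear on these values. Levels are log2 processed signals less the 75th percentile of their own array, so that 0 is that percentile. It was 745 to 1009 intensity units on NT arrays and 453 to 546 on the co-treated arrays, and 53.0 to 60.6% of spots were well above background. The 7 colon epithelial markers checked, among them KRT20, VIL1 and CDX2, were well above background on all 24 arrays, while the fibroblast markers COL1A2, COL3A1 and DCN were on none and COL1A1 on 16. Of 3 leukocyte markers PTPRC and CD14 were on all 24 and CD3E on 10, while the 3 endothelial markers PECAM1, VWF and CDH5 were on all 24. Mean levels of the brightest probe were -4.21 for PTPRC, -2.93 for PECAM1, -4.22 for VWF, -3.45 for CDH5 and 1.42 for CD14. The epithelial markers ran from -0.36 (CDX2) to 8.89 (KRT18). The part of the leukocyte and endothelial signals in the results was not tested. NT and C3/C2 shared slides 1 and 2, SN and TRAIL shared slide 3, and both co-treatments were on slide 4, so SN, TRAIL and co-treatment differences from NT cannot be told apart from slide differences. C3/C2 against NT, SN against TRAIL and TRAIL+SN against TRAIL+C3/C2 were made within slides. All other comparisons, the interactions included, were made across slides and cannot be told apart from slide differences. The study's methods describe 2 independent experiments run in duplicate, which the labels do not map to replicate numbers. All 24 arrays correlated best with the same partner within their group, array 1 with 2 and array 3 with 4. The p-values below treat the 4 arrays as separate samples, so they may partly measure technical spread. Results lost when these pairs were taken as blocks are named. This covers the comparisons with NT, TRAIL+SN against TRAIL+C3/C2, SN against TRAIL or C3/C2, and the interactions. Other comparisons between treatments, such as TRAIL+SN against TRAIL or TRAIL against C3/C2, were not checked 1 by 1 with such blocks. The exact permutation tests were not run with such blocks. An adjusted p is Benjamini-Hochberg adjusted over the 27957 probes tested with limma, a probe "passed the test" at an adjusted p under 0.05, and it is "called" if its fold change also reached 2. The median of all probes lay between -0.019 and 0.105 on the log2 scale in the 5 comparisons with NT and SN against TRAIL. With arrays scaled to 7 spike-in control probes it fell to -0.61 in TRAIL+C3/C2 and to -0.48 in TRAIL+SN, and the higher share of all called probes went from 66.9% to 20.4% and from 61.2% to 26.7%. With scaling to the array median the higher share went from 68.2% to 44.4% in C3/C2 and from 66.9% to 41.7% in TRAIL+C3/C2. In SN against TRAIL the higher share was 61.6%, and 82.9% with spike-in and 44.1% with median scaling. The directions below are therefore relative to the bulk of probes. Flips are named where the value passed the test in the setting used here or in the other one.

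**Figure D1:**
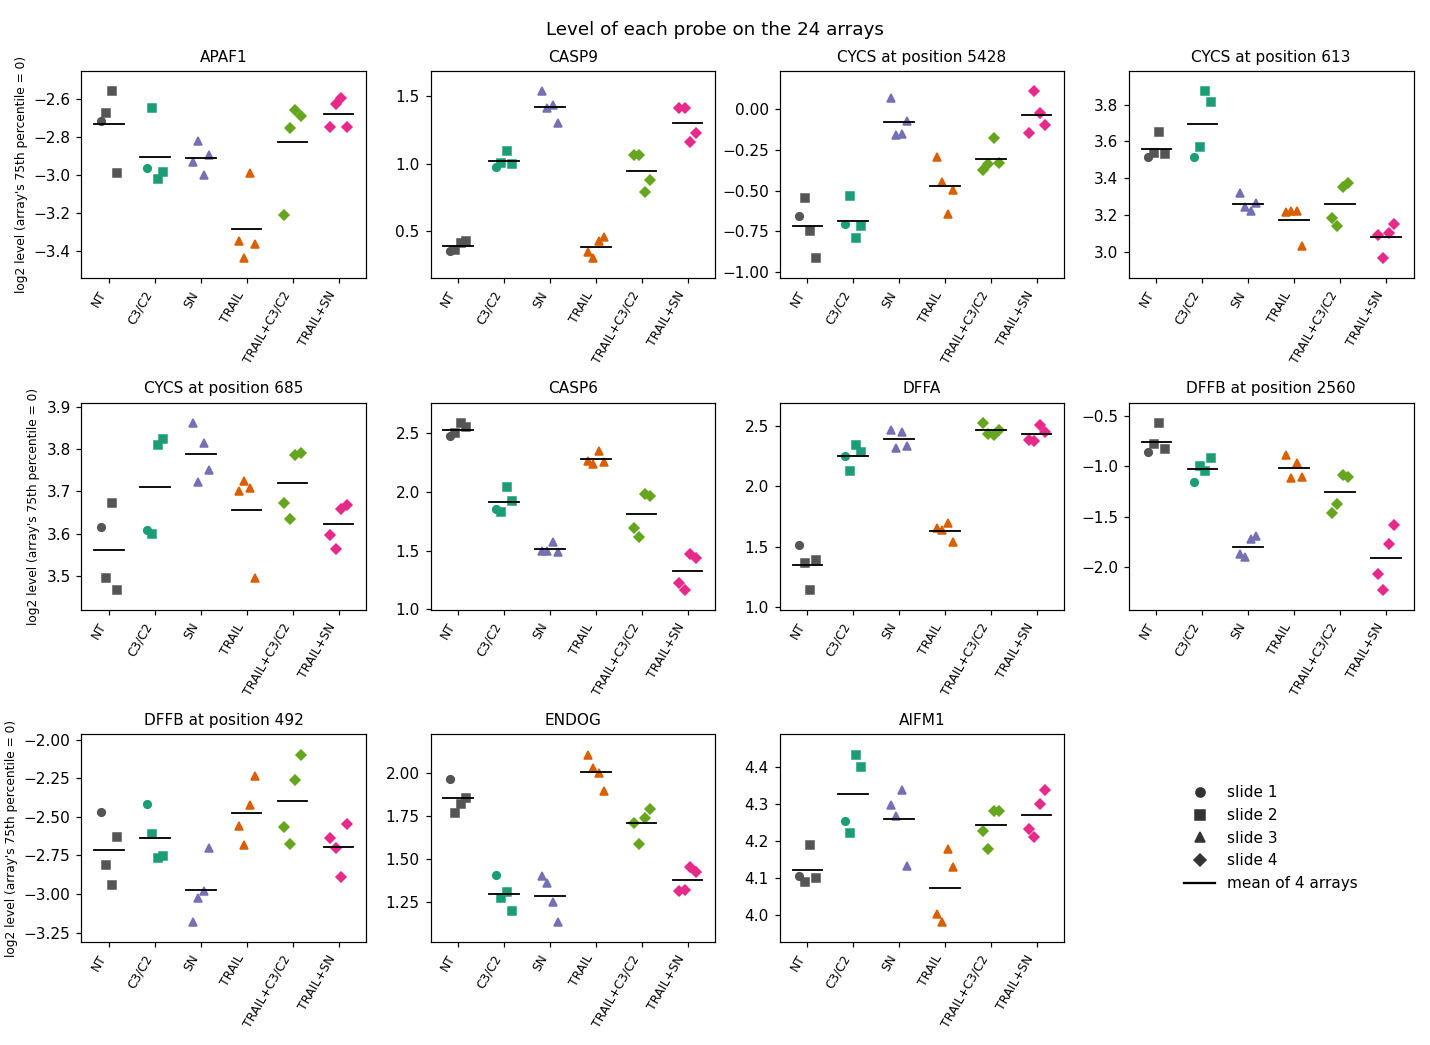
Log2 level (y axis, array's 75th percentile = 0, own scale in each panel) of the 11 probes on the 24 arrays, by group (x axis). Points are arrays, their shape gives the slide, and bars are means of 4 arrays. DFFA and CASP9 stand higher, and CASP6 and the far DFFB probe lower, in the SN arrays than on any NT array.

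DFFA rose, while of the 2 probes of its nuclease DFFB only the far one passed the test downward with the scaling used here. In NT cells DFFA, the inhibitor, read 1.51, 1.36, 1.14 and 1.39 on the log2 scale, and in SN cells 2.47, 2.31, 2.45 and 2.34. All treated arrays of every group, TRAIL included, lay above all NT arrays. The log2 difference from NT was 0.90 ± 0.07 (SE, n = 4 and 4) in C3/C2, 1.04 in SN, 0.28 in TRAIL, 1.11 in TRAIL+C3/C2 and 1.08 in TRAIL+SN, with the same SE in each. The limma adjusted p was 2.39e-10 in C3/C2, 1.89e-11 in SN, 0.00354 in TRAIL, 6.46e-12 in TRAIL+C3/C2 and 9.34e-12 in TRAIL+SN. With spike-in scaling the TRAIL difference was 0.007 and no longer passed (adjusted p = 0.964). The co-treatment differences still passed but were smaller, at 0.40 in TRAIL+C3/C2 and 0.55 in TRAIL+SN with spike-in scaling and 0.76 and 0.88 with median scaling, all under a fold of 2. The 10 DFFA spots of an array differed by an SD of 0.02 to 0.10, against an SD of 0.155 between NT arrays. In RNA from whole cultures a change in every cell and a larger change in some cells cannot be told apart, here or below.

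DFFB was read differently by its 2 probes. The far probe, at position 2560, read -0.85, -0.78, -0.56 and -0.82 in NT and -1.87, -1.90, -1.72 and -1.70 in SN. It was lower than NT on every array of all 5 treated groups. The difference was -1.04 ± 0.12 in SN (adjusted p = 8.17e-08), -1.16 in TRAIL+SN (adjusted p = 1.48e-08) and -0.50 in TRAIL+C3/C2 (adjusted p = 0.000728), all by limma. In C3/C2 it was -0.27 (adjusted p = 0.0478), which did not hold with array pairs as blocks (adjusted p = 0.0947) or within slide 2 (adjusted p = 0.059). The C3/C2 value also did not pass on leaving out any 1 of NT replicates 2, 3 and 4 and C3/C2 replicates 1, 2 and 3, with an adjusted p of 0.0534 to 0.156. In TRAIL the difference was -0.26 (adjusted p = 0.0947), which passed at -0.54 with spike-in scaling (adjusted p = 0.0131) and at -0.25 with normexp correction (adjusted p = 0.0225). The near probe, at position 492, gave 72.8 to 147 intensity units, and its groups overlapped NT in every treatment. It read -2.47, -2.81, -2.94 and -2.63 in NT and -3.18, -3.02, -2.98 and -2.70 in SN, a difference of -0.26 with a 95% interval from -0.54 to 0.03, which passed with median scaling (-0.39, adjusted p = 0.00898), with quantile scaling (-0.35, adjusted p = 0.0247), without NT replicate 3 (adjusted p = 0.0472) or without SN replicate 4 (adjusted p = 0.0364). In TRAIL+C3/C2 it was 0.31 higher (adjusted p = 0.0476), a value that turned to -0.40 with spike-in scaling and to -0.03 with median scaling, and that was lost without any 1 of NT replicates 2, 3 and 4 and TRAIL+C3/C2 replicates 3 and 4 (adjusted p 0.053 to 0.186) and with array pairs as blocks (adjusted p = 0.112). The change of the far probe less that of the near probe was -0.78 in SN, -0.81 in TRAIL+C3/C2 and -1.18 in TRAIL+SN, each with an exact two-sided permutation p of 0.0286, the smallest that 4 arrays against 4 allow. In C3/C2 it was -0.35 (exact permutation p = 0.2) and in TRAIL -0.50 (exact permutation p = 0.0571).

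A log2 difference between 2 probes on the same array is not touched by any factor that scales the whole array. DFFA less the far DFFB probe rose over its NT mean by 1.17 in C3/C2, by 2.08 in SN, by 0.54 in TRAIL, by 1.61 in TRAIL+C3/C2 and by 2.24 in TRAIL+SN. DFFA less the near DFFB probe rose by 0.82, 1.30, 0.04, 0.80 and 1.06 in the same order. For 9 of these 10 changes the exact two-sided permutation p was 0.0286, and for TRAIL with the near probe it was 0.771. These p-values are not adjusted, and 0.0286 is the smallest the design allows. The arrays of C3/C2, SN and both co-treatments thus lay above all NT arrays with either DFFB probe. The near probe by itself overlapped NT in every treatment, so the rise against it shows no change of DFFB.

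**Figure D2:**
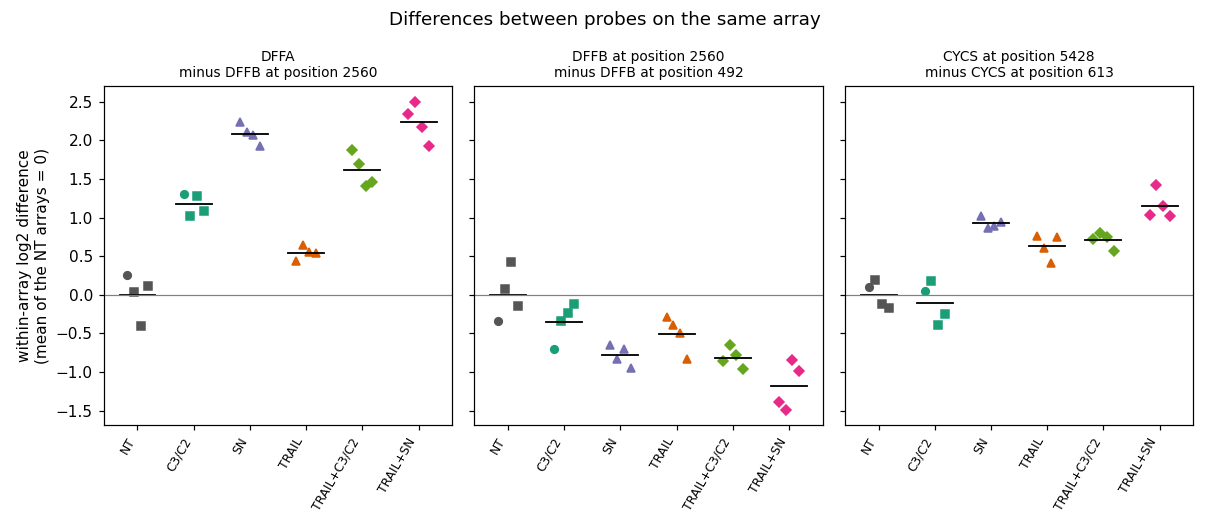
Differences between 2 probes on the same array (y axis, log2, mean of the NT arrays = 0) by group (x axis); points are arrays, shapes are slides and bars are means of 4. DFFA rises against the far DFFB probe by 2.08 in SN and 2.24 in TRAIL+SN, and the 2 DFFB probes and the far and near CYCS probes part by up to 1.18 and 1.16.

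CASP6, the effector caspase, was lower in every treatment. It read 2.48, 2.50, 2.59 and 2.55 in NT, 1.86, 1.83, 2.04 and 1.92 in C3/C2, and 1.5, 1.5, 1.57 and 1.49 in SN. In TRAIL it read 2.26, 2.24, 2.35 and 2.26, in TRAIL+C3/C2 1.69, 1.62, 1.98 and 1.97, and in TRAIL+SN 1.22, 1.16, 1.47 and 1.44. No treated array reached an NT array. The difference from NT was -0.62 ± 0.08 (SE) in C3/C2, a 1.53-fold fall, and 2.02-fold in SN, 1.19-fold in TRAIL, 1.64-fold in TRAIL+C3/C2 and 2.31-fold in TRAIL+SN. The limma adjusted p was 9.07e-07 in C3/C2, 4.12e-10 in SN, 0.0217 in TRAIL, 9.04e-08 in TRAIL+C3/C2 and 2.32e-11 in TRAIL+SN. The TRAIL value did not pass without NT replicate 3 (adjusted p = 0.0602), without TRAIL replicate 2 (adjusted p = 0.0524) or with median scaling (adjusted p = 0.315).

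CASP9, the initiator caspase of the apoptosome, rose with C3/C2 or SN, alone or with TRAIL, and not with TRAIL alone, though in TRAIL+C3/C2 its sign turned with spike-in scaling. It read 0.36, 0.36, 0.41 and 0.43 in NT, 0.98, 1.01, 1.10 and 1.00 in C3/C2, and 1.54, 1.41, 1.43 and 1.30 in SN. In TRAIL it overlapped NT, at 0.35, 0.30, 0.43 and 0.46, a difference of -0.01 with a 95% interval from -0.16 to 0.14. It read 1.06, 1.07, 0.79 and 0.88 in TRAIL+C3/C2 and 1.41, 1.42, 1.16 and 1.23 in TRAIL+SN. CASP9 was 1.55-fold higher than NT in C3/C2 (adjusted p = 1.25e-07), 2.04-fold in SN (adjusted p = 4.86e-11), 1.47-fold in TRAIL+C3/C2 (adjusted p = 5.92e-07) and 1.88-fold in TRAIL+SN (adjusted p = 2.97e-10), by limma. With spike-in scaling the TRAIL+C3/C2 difference turned to -0.16 (adjusted p = 0.279).

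APAF1, the scaffold of the apoptosome, gave 53.2 to 171 intensity units. It read -2.72, -2.67, -2.56 and -2.99 in NT and -3.35, -3.44, -2.99 and -3.36 in TRAIL. The highest TRAIL array met the lowest NT array, and its other arrays lay below all of NT. The TRAIL difference was -0.55 ± 0.12 (SE), a 1.46-fold fall with an adjusted p of 0.0015 by limma. The other 4 treatments differed from NT by -0.18 to 0.05 and did not pass. With median scaling C3/C2 (-0.47, adjusted p = 0.0051) and TRAIL+C3/C2 (-0.44, adjusted p = 0.00736) did, as they did with quantile scaling (-0.38, adjusted p = 0.0133, and -0.35, adjusted p = 0.0219). With spike-in scaling TRAIL+C3/C2 passed at -0.81 (adjusted p = 0.000153) and TRAIL+SN turned to -0.47 (adjusted p = 0.0144). With normexp correction both co-treatments were higher than NT, at 0.18 (adjusted p = 0.0412) and 0.22 (adjusted p = 0.0107), so the direction of APAF1 in the co-treatments depends on the processing. Across slides, TRAIL+SN was 0.60 above TRAIL (adjusted p = 0.000151, limma), and its arrays, at -2.75, -2.63, -2.60 and -2.75, all lay above those of TRAIL. This difference cannot be told apart from a slide difference, and it was smaller with median and spike-in scaling. With median scaling the steps between neighbouring group means from TRAIL up to TRAIL+SN were 0.009, 0.133 and 0.166. With spike-in scaling they were 0.016 and 0.336, and none of these steps passed the test.

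CYCS gave 3 different readings. The near probe, at position 613, fell from 3.52, 3.54, 3.65 and 3.53 in NT to 3.32, 3.24, 3.22 and 3.27 in SN, and to 3.09, 2.97, 3.1 and 3.15 in TRAIL+SN. The far probe, at position 5428, rose from -0.66, -0.55, -0.74 and -0.91 in NT to 0.06, -0.16, -0.16 and -0.07 in SN, and to -0.15, 0.11, -0.03 and -0.10 in TRAIL+SN. Neither probe's SN or TRAIL+SN arrays overlapped NT. The near probe's difference from NT was -0.30 in SN, -0.39 in TRAIL, -0.30 in TRAIL+C3/C2 and -0.48 in TRAIL+SN (SE 0.08), the limma adjusted p running from 0.00183 in SN to 1.06e-05 in TRAIL+SN. With spike-in scaling the SN value did not pass (adjusted p = 0.0798). The far probe's difference was 0.63 in SN, 0.41 in TRAIL+C3/C2 and 0.68 in TRAIL+SN (SE 0.09), with limma adjusted p of 1.44e-06, 0.000268 and 5.56e-07. With spike-in scaling the far probe turned to -0.30 in TRAIL+C3/C2 and did not pass in TRAIL+SN (0.15, adjusted p = 0.393), and with median scaling it did not pass in TRAIL+C3/C2 (adjusted p = 0.538). Its TRAIL difference of 0.246 (adjusted p = 0.0361) turned to -0.03 with spike-in scaling. It was lost with array pairs as blocks (adjusted p = 0.133) and without any 1 of NT replicates 3 and 4 and TRAIL replicates 1, 2 and 4 (adjusted p 0.0544 to 0.137). The far probe less the near probe, which needs no scaling, rose by 0.93 in SN, 0.63 in TRAIL, 0.71 in TRAIL+C3/C2 and 1.16 in TRAIL+SN, with an exact two-sided permutation p of 0.0286 in each, and changed by -0.105 in C3/C2 (exact permutation p = 0.486). The DFFB and CYCS probe pairs made 20 such comparisons in all, and the p-values are neither adjusted nor taken with array pairs as blocks. The probe at position 685 was 0.225 higher in SN (adjusted p = 0.00636, limma), which did not pass with median scaling (adjusted p = 0.406). It was 0.16 higher in TRAIL+C3/C2 (adjusted p = 0.0455), a value that turned to -0.56 with spike-in and -0.19 with median scaling and was lost with array pairs as blocks (adjusted p = 0.113) and without any 1 of NT replicates 2 and 4 and TRAIL+C3/C2 replicates 3 and 4 (adjusted p 0.115 to 0.134). Whether these readings reflect transcript ends or pseudogenes was not tested.

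ENDOG, the mitochondrial nuclease, read 1.97, 1.77, 1.82 and 1.86 in NT, 1.41, 1.28, 1.31 and 1.2 in C3/C2, and 1.40, 1.36, 1.25 and 1.14 in SN. Both treatments lay below every NT array. Its difference from NT was -0.56 ± 0.07 (SE) in SN (adjusted p = 2.65e-07), -0.555 in C3/C2 (adjusted p = 4.05e-07), and -0.475 in TRAIL+SN (adjusted p = 2.7e-06), by limma. In TRAIL+C3/C2, at 1.71, 1.59, 1.74 and 1.79, the arrays overlapped NT and the difference was -0.145 (adjusted p = 0.0659). It passed with spike-in scaling at -0.86 (adjusted p = 1.06e-06), with median scaling at -0.49 (adjusted p = 2.98e-05), with quantile scaling at -0.24 (adjusted p = 0.00244), with normexp correction at -0.19 (adjusted p = 0.0139), without NT replicate 2 (adjusted p = 0.0452) and without TRAIL+C3/C2 replicate 4 (adjusted p = 0.0455). In TRAIL it was 0.15 (adjusted p = 0.0953), at 0.25 past the test with median scaling (adjusted p = 0.0266) and at -0.12 with spike-in scaling (adjusted p = 0.472).

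AIFM1, the mitochondrial flavoprotein, gave small differences whose direction depended on the scaling. Its NT arrays read 4.11, 4.09, 4.19 and 4.10, and its C3/C2 arrays 4.25, 4.22, 4.43 and 4.40. All treatment differences lay between -0.05 and 0.21, while with spike-in scaling they were -0.59 in TRAIL+C3/C2 (adjusted p = 9.74e-06) and -0.32 in TRAIL (adjusted p = 0.0174), and with quantile scaling -0.18 in TRAIL (adjusted p = 0.0107). C3/C2 passed at 0.21 ± 0.06 (SE, adjusted p = 0.00585), turning to -0.09 with median scaling and not passing within slide 2 (adjusted p = 0.0723), and TRAIL+SN at 0.15 (adjusted p = 0.0344), turning to -0.38 with spike-in scaling and -0.04 with median scaling and lost with array pairs as blocks (adjusted p = 0.0762). Without any 1 of NT replicates 1, 2 and 4 and TRAIL+SN replicates 3 and 4 the TRAIL+SN value did not pass (adjusted p 0.0645 to 0.0957).

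**Figure D3:**
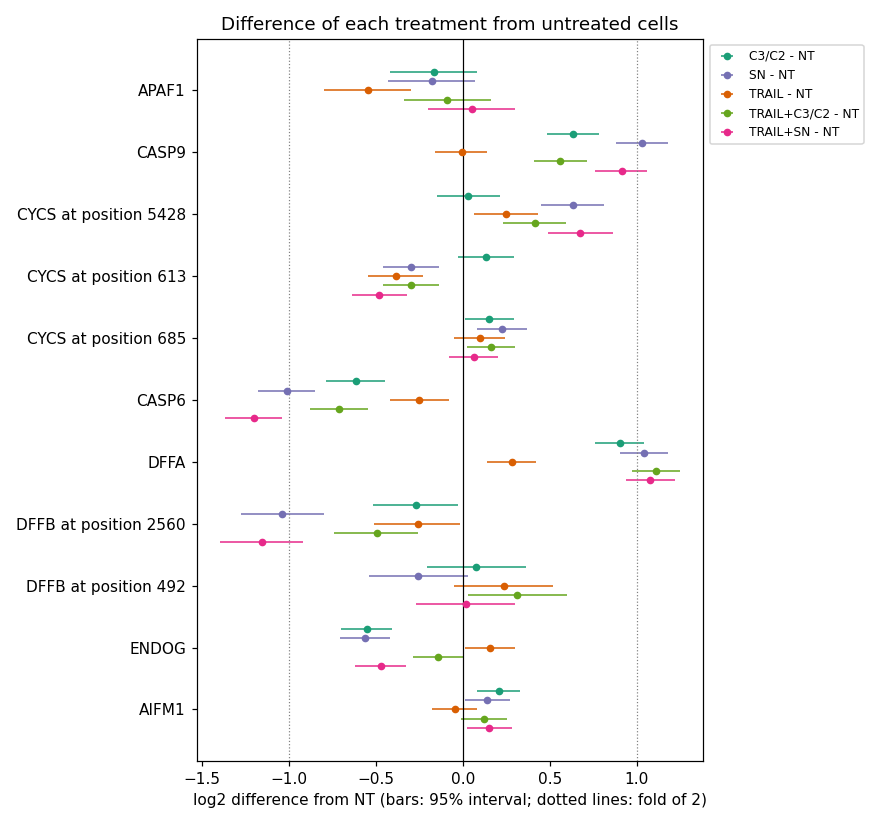
Log2 difference from NT (x axis) of each probe (y axis) in 5 treatments; points are limma estimates over 4 arrays against 4, bars are 95% intervals and dotted lines mark a fold of 2. DFFA and CASP9 lie to the right and CASP6 and the far DFFB probe to the left in SN and TRAIL+SN, while in TRAIL no probe reaches a fold of 2; under spike-in scaling CASP9 and other probes in TRAIL+C3/C2 change sign.

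Counted over the 11 probes, C3/C2 changed 6: DFFA, CASP9 and AIFM1 passed the test upward, and CASP6, ENDOG and the far DFFB probe downward. Of all probes tested 34.9% passed upward and 28.3% downward in C3/C2, so 3 and 3 of 11 were close to the shares of the array. No member reached a fold of 2, against 13.3% of all probes called higher and 6.22% called lower. In SN 4 passed upward and 4 downward, against 35.2% and 33.7% of all probes. DFFA and CASP9 were called higher and CASP6 and the far DFFB probe lower, against 14.1% and 9.69%. These 4 calls stood at folds of 2.02 to 2.06, just at the limit. Without NT replicate 3 only 1 was left, and without SN replicate 1 there were 3. Scaling to the array median or by quantiles left the 2 lower calls and neither higher one, spike-in scaling left the 2 higher calls and neither lower one, and normexp background correction left 0. TRAIL alone moved DFFA and the far CYCS probe upward and APAF1, CASP6 and the near CYCS probe downward past the test, against 19.3% and 12.1% of all probes. None was called, against 0.723% higher and 2.11% lower.

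In TRAIL+C3/C2 5 probes passed upward and 3 downward, against 40.1% and 29.4% of all probes, and DFFA alone was called, against 16.4% higher and 8.12% lower. With spike-in scaling DFFA was not called and CASP6, the far DFFB probe and the near CYCS probe were called lower, at -1.43, -1.21 and -1.01, and with median scaling CASP6 alone was called, at -1.06. In TRAIL+SN 4 passed upward and 4 downward, against 37.8% and 32.5%, and DFFA was called higher and CASP6 and the far DFFB probe lower, against 16.1% and 10.2%. The DFFA call was lost with median and spike-in scaling, both lower calls stayed in these, and with spike-in scaling ENDOG (-1.001) and the near CYCS probe (-1.007) were called lower too. With normexp correction the far DFFB probe was not called (-0.86). The median log2 difference of the 11 probes was 0.075 in C3/C2 (0.07 over all probes), -0.18 in SN (-0.01 over all), -0.01 in TRAIL (0.04), 0.12 in TRAIL+C3/C2 (0.105) and 0.05 in TRAIL+SN (0.05). The arrays did not overlap those of NT for 6 of 11 probes in C3/C2, 8 in SN, 4 in TRAIL, 6 in TRAIL+C3/C2 and 8 in TRAIL+SN, against 58.4%, 63.4%, 31.7%, 64% and 63.9% of all probes. Set beside these shares, the counts are no result about the 8 genes as a set.

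SN and its acids were set against each other on slide 4, in the co-treatments. TRAIL+SN was higher than TRAIL+C3/C2 in CASP9 by 0.36 ± 0.07 (SE, adjusted p = 0.00055) and in the far CYCS probe by 0.26 (adjusted p = 0.0212, or 0.0887 with array pairs as blocks, 0.0573 without TRAIL+C3/C2 replicate 1 and 0.0801 without TRAIL+SN replicate 2). It was lower in CASP6 (difference -0.49, adjusted p = 7.23e-05), in the far DFFB probe (difference -0.66, adjusted p = 0.000151) and in ENDOG (difference -0.33, adjusted p = 0.00072), by limma. The ENDOG difference did not pass with median (adjusted p = 0.121) or spike-in scaling (adjusted p = 0.419). The arrays of the 2 groups did not overlap in any of these 5 probes, while they did not overlap in 34.2% of all probes, and 37.1% of all probes passed the test in either direction. No member reached a fold of 2, against 3.48% of all probes. DFFA differed by -0.03, with a 95% interval from -0.18 to 0.11.

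Without TRAIL, and across slides, SN differed from C3/C2 in 5 probes, against 45.5% of all probes past the test, and none was called, against 5.49%. The arrays did not overlap for 5 of 11 probes, against 42.9% of all probes. CASP9 was 0.40 higher (adjusted p = 0.00012) and the far CYCS probe 0.605 higher (adjusted p = 9.88e-06) in SN. CASP6 differed by -0.40 (adjusted p = 0.000428), the far DFFB probe by -0.77 (adjusted p = 1.94e-05) and the near CYCS probe by -0.43 (adjusted p = 0.000122), by limma. CASP6 and the near CYCS probe did not pass with spike-in scaling (adjusted p = 0.269 and 0.194) or median scaling (adjusted p = 0.0987 and 0.0549). ENDOG differed by -0.01, with a 95% interval from -0.15 to 0.13, and DFFA by 0.14, with a 95% interval from 0.00 to 0.28, which passed with spike-in (adjusted p = 0.0019) and median scaling (adjusted p = 0.00341). Whether the ENDOG difference depends on TRAIL was not tested.

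SN and TRAIL shared slide 3. There 9 of 11 probes passed the test, against 66.3% of all probes, and CASP9 alone was called, against 21%, and not without SN replicate 1. With median scaling CASP9 was not called (0.81) and the far DFFB probe was, at -1.01, and with spike-in scaling DFFA was called beside CASP9, at 1.10. CASP9 was 1.04 ± 0.07 (SE) higher in SN (adjusted p = 4.76e-11) and DFFA 0.76 higher (adjusted p = 3.13e-09). CASP6 differed by -0.76 (adjusted p = 3.76e-08), ENDOG by -0.72 (adjusted p = 7.97e-09), and DFFB by -0.78 with the far probe (adjusted p = 5.18e-06) and by -0.50 with the near probe (adjusted p = 0.00311), by limma. The near probe's difference was -0.15 with spike-in scaling (adjusted p = 0.386). The far CYCS probe was 0.39 higher in SN (adjusted p = 0.000508), but not past the test with median scaling (adjusted p = 0.123). APAF1 was 0.37 higher (adjusted p = 0.00991), which was lost with array pairs as blocks (adjusted p = 0.0546) and with median, quantile or normexp processing (adjusted p = 0.367, 0.192 and 0.0716). AIFM1 was 0.185 higher (adjusted p = 0.0115) and turned to -0.04 with median scaling. Here, within a slide, the arrays of the 2 treatments did not overlap for 8 of 11 probes, against 61.6% of all probes. These were the probes of CASP9, DFFA, CASP6 and ENDOG, both of DFFB, and the near and far CYCS probes. The near CYCS probe did not pass (0.09, adjusted p = 0.315), but did with spike-in scaling (0.435, limma adjusted p = 0.00164). The CYCS probe at position 685 passed with spike-in scaling (0.475, limma adjusted p = 0.000543) and with quantile scaling (0.175, limma adjusted p = 0.0128).

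Each co-treatment change was also set against the sum of the single changes, across slides. The interaction, the co-treatment change less both single changes, passed the test for 0 of 11 probes with C3/C2, against 2.43% of all probes, and for 1 of 11 with SN, against 21.6%. None was called, against 0.612% and 2.98%. The 1 was APAF1. Its TRAIL and SN changes summed to -0.73 and its TRAIL+SN change was 0.05, an interaction of 0.78 (limma adjusted p = 0.00261), which with spike-in scaling was 0.46 (adjusted p = 0.147). With C3/C2 the APAF1 interaction was 0.63 (adjusted p = 0.0557), and it passed without any 1 of NT replicate 4, C3/C2 replicate 2, TRAIL replicate 3 and TRAIL+C3/C2 replicate 1 (adjusted p 0.00775 to 0.0287). For DFFA the sum of TRAIL and SN was 1.32 and the co-treatment 1.08, an interaction of -0.24 (adjusted p = 0.0801) that passed at -0.565 with spike-in scaling (adjusted p = 0.00374) and at -0.41 with median scaling (adjusted p = 0.0126). For CASP6 the sum was -1.27 and the co-treatment -1.205.

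**Figure D4:**
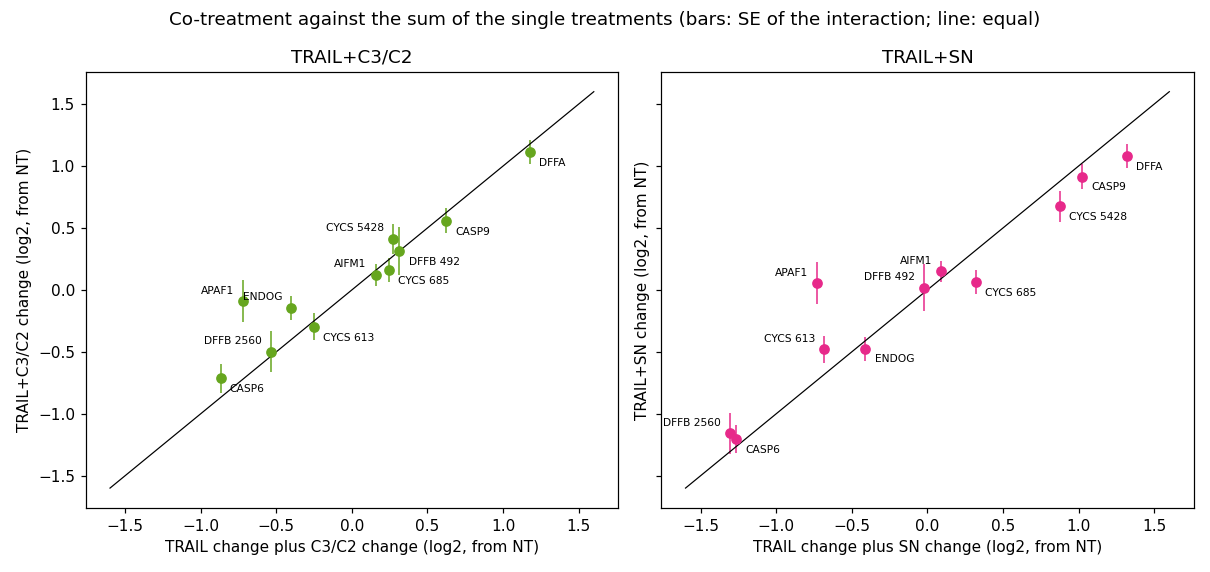
Change from NT in the co-treatment (y axis, log2) against the sum of the 2 single changes (x axis, log2) for the 11 probes; bars are the SE of the interaction and the line marks equality. APAF1 lies above the line in both panels, by 0.63 with C3/C2 and 0.78 with SN, and passes the test with SN, though not with spike-in scaling (0.46, adjusted p = 0.147 by limma).

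The order of the 6 group means was the same for CASP6 and the far DFFB probe, though not with spike-in scaling or normexp correction. For CASP6 the levels rose from TRAIL+SN through SN, TRAIL+C3/C2, C3/C2 and TRAIL to NT. Neighbours TRAIL+SN and SN (adjusted p = 0.106), and TRAIL+C3/C2 and C3/C2 (adjusted p = 0.377), were not separated by the test, and the other 3 steps passed. With median scaling the CASP6 steps from SN to TRAIL+C3/C2 (limma adjusted p = 0.587) and from TRAIL to NT (limma adjusted p = 0.315) did not pass. For the far DFFB probe only the step from SN to TRAIL+C3/C2, of 0.54, passed (adjusted p = 0.000811), and not with median scaling (adjusted p = 0.0746). With spike-in scaling TRAIL+C3/C2 lay below SN for both, by 0.485 for CASP6 (adjusted p = 0.000286) and by 0.24 for the far DFFB probe (adjusted p = 0.149). The orders of DFFA, CASP9 and ENDOG that follow also differed with spike-in and median scaling. For CASP9 the test did not separate TRAIL and NT (adjusted p = 0.955), TRAIL+C3/C2 and C3/C2 (adjusted p = 0.478), or TRAIL+SN and SN (adjusted p = 0.271), and the 2 steps between these pairs passed. For DFFA the steps from NT to TRAIL and from TRAIL to C3/C2, of 0.28 and 0.62, passed, and no step between neighbours among the 4 groups with C3/C2 or SN did. For ENDOG the only step that passed lay between TRAIL+SN and TRAIL+C3/C2, of 0.33. For the CYCS probe at position 685, the near DFFB probe and AIFM1, no step passed. Over all 11 probes 13 of 55 steps between neighbours passed, by limma.

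Over the 24 arrays, which share treatments and slides, the CASP6 level correlated with that of the far DFFB probe at a Pearson r of 0.93 and with CASP9 at -0.93, and DFFA with CASP9 at 0.87. The 2 DFFB probes correlated at 0.35 and the far and near CYCS probes at -0.73. Among 13274 other genes with a RefSeq symbol, the brightest probe of DAPK2 (r = 0.99) and RTN4R (r = 0.98) followed CASP9 most closely, those of LRRC49 and GNA11 (both r = 0.99) DFFA, and those of TYW3 and TFDP1 (both r = 0.98) CASP6. ZNF92 (r = 0.97) and MSL3 (r = 0.96) were nearest to the far DFFB probe, and FLII and THOC6 (both r = 0.97) to ENDOG. APAF1 (HOMER1, r = 0.81, RRM2B, r = 0.74), AIFM1 (IFT20, r = 0.89, ENAH, r = 0.88) and CYCS at position 685 (TTC1, r = 0.82, TAF11, r = 0.78) had no gene above 0.9, while 1492 genes exceeded 0.9 with DFFA.

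Other genes of the route were taken by list, and each count is to be read against the shares of all probes. These were 40.1% past the test upward and 29.4% downward in TRAIL+C3/C2, with 16.4% and 8.12% called, and 37.8% and 32.5% in TRAIL+SN, with 16.1% and 10.2% called. Among effector caspases and their substrates, 22 probes of 13 genes were tested. In TRAIL+C3/C2 9 passed the test upward and 8 downward, with 1 and 1 called, and in TRAIL+SN 10 and 6, with 2 and 1 called. LMNB1, which encodes lamin B1 of the nuclear lamina, differed from NT by -1.66 in TRAIL+C3/C2 and -1.82 in TRAIL+SN with 1 probe (mean level 2.19). A dimmer probe (mean level -3.38) gave -0.78 and -0.73. PRKCD, a protein kinase that caspases cleave, differed by 1.75 and 1.77. SPTAN1, a spectrin of the cytoskeleton, was 1.105 higher in TRAIL+SN with 1 probe and 0.595 with another. The list's median was -0.04 in TRAIL+C3/C2 (all probes 0.105) and 0.03 in TRAIL+SN (all probes 0.05), and in TRAIL alone none of its probes was called.

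Among apoptosome regulators 22 probes of 11 genes were tested. In TRAIL+C3/C2 8 passed upward and 11 downward, with 5 called, all lower, and in TRAIL+SN 5 and 12, with 1 called higher and 5 lower. NOL3, a CARD protein that blocks caspase activation, differed by -1.25 in TRAIL+C3/C2 and -1.30 in TRAIL+SN. AVEN, which binds APAF1, differed by -1.205 in TRAIL+SN. CARD8 differed by -1.81 and -1.95 with 1 dim probe (mean level -4.44, SE 0.30). The other probe (mean level -1.74, SE 0.09) gave -1.09 and -1.41. ANP32A, a nuclear phosphoprotein, was read by 3 probes between -1.34 and -0.75 in TRAIL+C3/C2 and between -1.51 and -0.625 in TRAIL+SN. The values -0.75 and -0.625 came from its dimmest probe (mean level -4.99, SE 0.26). The call upward in TRAIL+SN was HSPA8, a chaperone named after its value was seen, at 1.08 with 1 probe (mean level -1.26). Its other probes gave 0.74 (mean level -2.43) and -0.89, the last being the brightest (mean level 5.26). The list's median was -0.16 in TRAIL+C3/C2 and -0.54 in TRAIL+SN.

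Of 14 probes of 10 genes for factors released from mitochondria and their maturation, 5 passed upward and 7 downward in TRAIL+C3/C2, with 3 called lower, and 3 and 7 in TRAIL+SN, with 2 called lower. Both probes of OMA1, a protease of the inner membrane, were called, at -1.09 and -1.25 in TRAIL+C3/C2 and -1.40 and -1.36 in TRAIL+SN. AIFM2, a relative of AIFM1, differed by -1.085 in TRAIL+C3/C2 and -0.615 in TRAIL+SN. The median was -0.30 and -0.325. Among other nucleases and CIDE-domain genes 18 probes of 12 genes were tested, with 6 past the test upward and 7 downward in TRAIL+C3/C2, 2 of them called higher, and 5 and 11 in TRAIL+SN, with 3 called higher and 4 lower. Both probes of CIDEC, which carries the domain that DFFA and DFFB share, were called higher, at 1.01 and 1.135 in TRAIL+C3/C2 and 1.40 and 1.34 in TRAIL+SN. DNASE1L2, a secreted nuclease, was 1.15 higher and HMGB2, a chromatin protein, differed by -1.31 in TRAIL+SN. PPIA, a cyclophilin, was read between -1.38 and -0.008 in TRAIL+SN by its 5 probes. The median was -0.11 and -0.29. With spike-in scaling 37 probes of the 4 lists were called in at least 1 of the 5 comparisons with NT, in place of 22. The values given for list genes are those of the scaling used here only. Spike-in scaling moves all differences of a comparison by the same amount, and the median of all probes went from 0.105 to -0.61 in TRAIL+C3/C2. In TRAIL+SN it went from 0.046 to -0.48, so the higher calls named here may not hold with it.

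The RefSeq promoter table (GRCh38.p14, 250 bases before to 50 after the start) holds APAF1, CASP9, CYCS, CASP6, DFFA, ENDOG and AIFM1, with 2 starts for CASP9. Promoters of DFFA and CASP9, which both rose in C3/C2 and in SN but not both in TRAIL, and of CASP6, which fell, are shown to compare their letters. Capitals mark the GC box, spelled GGGCGG, or the box spelled CCAAT, on either strand and with overlapping matches counted. The TATA box, spelled TATAAA, and the cyclic AMP response element, spelled TGACGTCA, were searched in the same way.
DFFA, chr1:10472480-10472779, minus strand: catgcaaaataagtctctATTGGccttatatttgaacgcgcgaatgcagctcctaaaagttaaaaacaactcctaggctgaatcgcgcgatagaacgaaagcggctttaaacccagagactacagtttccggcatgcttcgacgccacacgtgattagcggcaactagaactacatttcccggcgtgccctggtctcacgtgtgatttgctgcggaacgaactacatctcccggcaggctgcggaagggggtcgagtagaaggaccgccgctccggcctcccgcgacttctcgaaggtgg
CASP9, chr1:15524166-15524465, minus strand: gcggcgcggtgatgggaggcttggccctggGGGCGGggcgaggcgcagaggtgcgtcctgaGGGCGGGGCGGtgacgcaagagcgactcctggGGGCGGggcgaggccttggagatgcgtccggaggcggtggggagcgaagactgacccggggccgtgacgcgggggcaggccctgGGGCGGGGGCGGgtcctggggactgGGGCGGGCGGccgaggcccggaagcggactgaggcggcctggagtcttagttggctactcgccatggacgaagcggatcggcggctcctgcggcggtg
CASP6, chr4:109703396-109703695, minus strand: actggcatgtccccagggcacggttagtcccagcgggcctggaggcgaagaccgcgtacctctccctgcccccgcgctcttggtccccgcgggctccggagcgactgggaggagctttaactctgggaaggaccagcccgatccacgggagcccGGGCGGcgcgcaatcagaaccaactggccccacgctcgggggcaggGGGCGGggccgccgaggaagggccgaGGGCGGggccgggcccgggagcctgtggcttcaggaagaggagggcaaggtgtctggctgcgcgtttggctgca

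The CASP9 stretch held 8 GC boxes and was 76.0% G and C, CASP6 held 3 and was 72.0%, and DFFA held none, with 1 CCAAT match and 53.7%. GGGCGG stood in 45.0% of 35116 promoters of the same length, CCAAT in 34.6%, TATAAA in 11.5% and TGACGTCA in 1.8%. Of the 8 member stretches 4 held GGGCGG and 6 CCAAT, and 0 held TATAAA or TGACGTCA. The DFFA and CASP9 stretches printed here share no match, while the other CASP9 stretch held 9 GC boxes and 1 CCAAT match.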

How the data were processed

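The authors hybridised Cy3-labelled cRNA from HT29 cells to single-colour Agilent arrays and extracted spot signals with Agilent Feature Extraction 10.7.3.1. The deposited scanner files hold background-subtracted processed intensity per spot, before any scaling between arrays. The authors' series table holds the same intensity as a ratio to each array's median (signal over median) and was used only to check the files. The files give hg19 probe coordinates.

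Control spots and spots with an outlier flag were dropped, spots of a probe averaged on the log2 scale, and each array's 75th percentile subtracted. A probe was tested if 1 group or more had it well above background on each of its 4 arrays (27957 of 50599). Group means were fitted over 24 arrays with limma 3.58.1 in R 4.3.3, with the empirical Bayes test and Benjamini-Hochberg adjustment per comparison. Calls needed a fold of 2 and an adjusted p under 0.05. Exact permutation tests were two-sided and treated the 4 arrays of a group as separate samples. With 4 arrays a group, the number of arrays limits the precision. The scripts were tested on simulated data. No spot was saturated.

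The members, lists and tests were chosen with earlier results of these data known. All member probes are reported; from each list, up to 4 genes with the largest co-treatment change among called probes are named, and for each member the 2 genes most correlated with its brightest probe. A further 2 genes of that rule are not reported here. Alternatives were other scalings (array median, spike-in, quantile), normexp background correction with an offset of 50, other filters, 1 probe per gene, slide and replicate blocks, fits of the compared groups alone, array weights, other call rules, and each array left out in turn. Pairs of arrays as blocks were added after seeing the data. RefSeq (GRCh38.p14) gave promoters and symbols.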

Additional observations from a re-analysis of the deposited data

Results flagged for a closer look

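In 5 of 66 sets of 4 arrays (11 probes in 6 groups) 1 array lay far from the other 3, and chance flags about 1 set in 20. APAF1 in C3/C2 replicate 2 read -2.65 (others -3.02 to -2.96), and CASP6 in SN replicate 3 read 1.57 (others 1.49 to 1.5). TRAIL replicate 4 was low in 2 CYCS probes, at 3.49 for position 685 (others 3.70 to 3.72) and at 3.03 for position 613 (others 3.22), and NT replicate 3 was high for position 613 at 3.65 (others 3.52 to 3.54).

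Of 22 interactions tested, 1 passed: the APAF1 change in TRAIL+SN exceeded the sum of the single changes by 0.781 on the log2 scale (limma adjusted p = 0.00261). APAF1 gave 53.2 to 171 intensity units, and the part of background subtraction in this value was not tested beyond normexp correction, under which it passed too. The interaction draws on groups from different slides and cannot be told apart from slide differences.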

How the results depend on the processing

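Apart from leaving out arrays, 16 other settings were run. Of single member results 1189 stayed on the same side of the threshold, 61 passed only in the alternative and 44 only in the setting used here. A further 18 turned direction and passed in at least 1 of the 2 settings. Turns of direction with neither value past the test are counted among the 1189 and not named, such as DFFB at position 492 in C3/C2 (0.075, and -0.225 with median scaling). With 1 array left out these were 1006, 21, 29 and 0. Which of the 11 probes were called, and in which direction, changed with the scaling. The numbers called or past the test among the 11 probes moved as follows, and the cause was not tested. In SN against NT the 4 calls became 2 with median, spike-in or quantile scaling and 0 with normexp correction. With spike-in scaling there were 3 calls in TRAIL+C3/C2 against NT, 2 in SN against TRAIL and 37 in the pathway lists (22 here). The TRAIL by SN interaction passed for 4 probes with median scaling and for 2 with spike-in scaling, quantile scaling, normexp correction, the replicate block or array weights. The TRAIL by C3/C2 interaction passed for 1 with normexp correction, the filter on all arrays or the replicate block and for 2 with array weights.

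With 1 probe per gene fewer members were counted, 3 past the test in TRAIL, 5 in TRAIL+C3/C2 and 3 in SN against C3/C2, and 13 calls in the lists. With no minimum fold there were 6 calls in C3/C2, 8 in SN, 5 in TRAIL, 8 in each co-treatment, 5 between the co-treatments, 9 in SN against TRAIL, 5 in SN against C3/C2, 1 for the TRAIL by SN interaction and 75 in the lists. Leaving out 1 array gave 1 to 4 calls in SN against NT (1 without NT replicate 3), 0 to 1 in SN against TRAIL (0 without SN replicate 1), 3 to 5 probes past the test in TRAIL (3 without NT replicate 3 or TRAIL replicate 2), 0 to 1 for the TRAIL by C3/C2 interaction and 1 to 2 for the TRAIL by SN interaction.

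With median scaling AIFM1 turned to -0.094 in C3/C2, -0.226 in TRAIL+C3/C2, -0.044 in TRAIL+SN and -0.044 in SN against TRAIL, CYCS at position 5428 to -0.272 in C3/C2, and in TRAIL+C3/C2 CYCS at position 685 to -0.188 and DFFB at position 492 to -0.034. With spike-in scaling CYCS at position 5428 turned to -0.028 in TRAIL. In TRAIL+C3/C2 spike-in scaling gave -0.593 for AIFM1, -0.156 for CASP9, -0.556 for CYCS at position 685, -0.304 for CYCS at position 5428 and -0.402 for DFFB at position 492. In TRAIL+SN it gave -0.473 for APAF1, -0.376 for AIFM1, -0.466 for CYCS at position 685 and -0.507 for DFFB at position 492. With normexp correction APAF1 turned to 0.176 in TRAIL+C3/C2.

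Same-numbered arrays of different groups deviated together with a correlation of 0.052 to 0.445 (median 0.194, over 0.1 in 52 of 60 pairs), and arrays with different numbers with a median of -0.114 (over 0.1 in 40 of 180). Since not every same-numbered pair was over 0.1 and the labels tie the numbers to nothing shared, the numbers were not taken as pairs. The replicate block brought 9 member results past the threshold, among them AIFM1 in SN (adjusted p = 0.0164), DFFB at position 2560 in TRAIL (adjusted p = 0.0378), ENDOG in TRAIL+C3/C2 (adjusted p = 0.0467) and the APAF1 interaction of TRAIL with C3/C2 (adjusted p = 0.0274), and lost none. Arrays 1 and 2 and arrays 3 and 4 as blocks, added after seeing the data, lost 7 member results. The SE was widest for DFFB at position 492 (0.137, at 72.8 to 147 intensity units), APAF1 (0.12, at 53.2 to 171) and DFFB at position 2560 (0.117).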
